A study of Mustela putorius furo with 8 samples.

Results

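The cells described here are those that the deposited cell table names Prolif_acinar (proliferating acinar) in the wild-type (WT) libraries, chosen by that name alone. There were 663 such cells, 3.07% of the 21600 retained WT cells and part of 32945 retained cells in all. Of these, 650 were cells of day 2, where they made up 10.4% of 6224 cells (95% interval 9.69 to 11.2%). The values below are of those 650 cells unless another day is named. They fell in WT clusters 25 (378 cells) and 28 (272 cells).

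The study followed pancreatic ductal epithelial (PDE) cultures of ferrets by single-cell RNA sequencing while they polarized at an air-liquid interface, on day 2, 5, 7 and 9. The cells came from ductal structures of newborn animals, WT or with both CFTR alleles knocked out (CF), and had been passaged 10 times to remove other cell types before they were seeded on permeable supports. The study states that cells of 3 donors of each genotype were pooled, and the deposited cells carry no label of their animal. Each genotype and day had a single library. No value therefore has a replicate error, and no test between groups was possible. Intervals are 95% intervals of counting error only.

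Dividing cells switch gene programs in order. Replication genes, such as those of the MCM helicase and of nucleotide supply, are transcribed towards and during S phase, histone genes within it, and cyclin B, kinesin and kinetochore genes in G2 and mitosis. Acinar cells are the enzyme-secreting cells of the exocrine pancreas, and ductal cells line the tubes that carry the enzymes away.

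Levels are given as CPM, the unique molecular identifiers (UMIs) of a gene per 1000000 UMIs summed over all cells of a group. A difference is the log2 of CPM + 1 in one group minus that in another. It was computed for genes with at least 20 CPM in either group, and a gene is called higher or lower from 2-fold. Smaller differences were counted from 25% higher or 20% lower. Clusters had been made from the same counts, so differences between a cluster and the rest describe the cells and test nothing.

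The retained cells of the day 2 library held 114585136 UMIs, against between 34735952 and 114585136 UMIs over all 8 libraries. The median Prolif_acinar cell held 22185.5 UMIs (22834.5 in cluster 25 and 20313.5 in cluster 28), and the median of the other day 2 cells was 15803 UMIs. The median mitochondrial share was 9.09% in the class and 9.18% in the others. Between the day 2 library and the other 7 libraries 55 cell barcodes were shared, 3 of them of the class.

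The markers of proliferation given for the class were far higher in both of its clusters than in the rest of the library. CCNB1, the cyclin that drives entry into mitosis, had 64.9 CPM in cluster 25 and 269 CPM in cluster 28, against 3.79 CPM in the other day 2 cells. Over the class it had 143 CPM, a ratio of 37.7 (33.8 to 42.2). MKI67, the gene of the proliferation antigen Ki-67, had 168 and 189 CPM in clusters 25 and 28 and 5.25 CPM in the other cells, and its ratio was 33.5 (30.5 to 36.9). TOP2A, which untangles replicated DNA, had 274 and 298 CPM in the same clusters against 11.3 CPM, a ratio of 25 (23.4 to 26.7). CCNA2, the cyclin of S and G2 phase, had 68.8 and 90.5 CPM against 3.65 CPM, a ratio of 21.1 (18.8 to 23.8). CDC20, an activator of the ligase that ends metaphase, had 42.6 and 160.3 CPM against 4.48 CPM, a log2 difference of 4.01.

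LDHA, lactate dehydrogenase A and the sixth marker given, did not set the class apart in this way. It had 804 CPM in cluster 25 and 847 CPM in cluster 28, and 704 CPM in the other cells, a ratio of 1.16 (1.14 to 1.19). Clusters 4 and 6, both deposited as ductal, had more, with 900.1 and 876 CPM.

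Shares of cells with a UMI followed the same order. After every cell was thinned to 3000 UMIs, which left out 2 cells of the class and 78 of the others as too shallow, 36.4% of Prolif_acinar cells and 0.983% of the other cells held an MKI67 UMI. The centroacinar progenitor class, whose cells were nearly all outside S and G2/M phase by the deposited calls, gave 0 of 714 cells. At that depth this allows a share of up to 0.420% by the limit of 3 counts and 0.515% by the exact interval. For TOP2A the shares were 47.2% in the class, 2.15% in the other cells and 0.560% in the progenitors, and for CCNB1 they were 29.9%, 0.509% and 0.140%. LDHA UMIs were held by 89.4% of Prolif_acinar cells, 84.8% of the other cells and 69.5% of progenitors. Without thinning, 88.0% of Prolif_acinar and 4.43% of other cells held an MKI67 UMI, at median depths of 22185.5 and 15803 UMIs, and so did 1.96% of progenitors (1.08 to 3.27%), at 19625.5 UMIs.

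Across 5745 genes, 260 were at least 2-fold higher in the class than in the other day 2 cells (4.53%) and 92 at least 2-fold lower (1.6%). The median difference over all genes was 0.05 on the log2 scale. With every cell thinned to 3000 UMIs, so that the deeper cells of the class weighed no more, 283 genes were higher and 96 lower. Of the 260 genes, 81 were on the lists of cell cycle, chromatin or tubulin genes used here, and none of the 92 was. The 20 genes with the largest difference among those of at least 50 CPM held 15 members of the G2/M list.

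All 38 of the G2/M and mitosis genes that reached 20 CPM were at least 2-fold higher in the class, against 4.53% of all genes, with a median log2 difference of 3.92 and a range from 1.30 (CKS1B) to 4.91 (CCNB1). The list holds 40 genes, and CCNF and CENPA fell short of the minimum, with 8.96 and 18.6 CPM in the class. Of the 40, 12 had at least 10 CPM in the other cells and 39 in the class. Most of the 38 thus passed the minimum through the class alone, and their count follows in part from it. Summed over the list the class had 4874 CPM, with 3873 CPM in cluster 25 and 6495 CPM in cluster 28. The other day 2 cells had 408 CPM and the progenitors 220.3 CPM.

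They included genes of several parts of the mitotic machinery. Of the cyclin and kinase genes, CCNB2 had 105 CPM against 3.57 CPM, CDK1 had 152 against 16.3 CPM and PLK1 had 67.9 against 9.93 CPM. AURKB, the kinase of the chromosomal passenger complex, had 137 CPM against 4.41 CPM, and its partner BIRC5 155 against 11.4 CPM. At the kinetochore, the attachment site of the spindle, CENPF had 421 CPM against 13.9 CPM, CENPE 153 against 7.61 CPM and NDC80 65.4 against 3.03 CPM. The spindle checkpoint kinase BUB1 had 54.2 CPM against 2.10 CPM. UBE2C, which supplies ubiquitin for the destruction of cyclins, had 402 CPM against 18.0 CPM. The largest log2 difference of any gene of at least 50 CPM was that of ASPM, a spindle pole protein, at 5.06, with 188 CPM against 4.67 CPM.

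S phase genes were higher too, but less so. All 32 of the S phase and replication genes that reached the minimum were at least 25% higher in the class (19.2% of all genes were) and 25 at least 2-fold, with a median of 1.34. In nucleotide supply, TK1, thymidine kinase, had 95.7 CPM against 15.9 CPM in the other cells, and RRM2, the regulated subunit of ribonucleotide reductase, 374 against 70.8 CPM. TK1, like others of the list, passed the minimum only through the class. At the replication fork, PCNA, the sliding clamp, had 320.4 CPM against 107 CPM, and CLSPN 103 against 21.0 CPM. Of the helicase genes, MCM3 had 88.7 against 33.7 CPM and MCM7 99.8 against 41.2 CPM, both over 2-fold apart, and MCM4 had 66.5 against 35.0 CPM and MCM6 54.1 against 32.8 CPM. GMNN, the inhibitor of re-licensing, had the smallest difference, 269 against 213 CPM or 0.34. With the cells of cluster 28 alone, 4 genes of the list were at least 2-fold higher than in the other cells, and MCM4 and MCM6 were lower there, with 19.4 and 18.1 CPM.

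Among 16 other regulators of the cycle 8 were at least 2-fold higher (4.53% of all genes were) and none 2-fold lower. Of these, FOXM1, FBXO5, WEE1, RBL1, CDK2, CHEK1 and CDC25B passed the minimum only through the class. MYBL2 reached it in both groups. FOXM1, the transcription factor of G2/M genes, had 28.4 CPM in the class and 1.35 CPM in the other cells, a log2 difference of 3.64. MYBL2, which acts with it, had 101 against 21.1 CPM, and FBXO5, which holds back cyclin destruction, 25.5 against 3.75 CPM. The D cyclins, which act in G1, did not follow, with CCND1 at 96.5 against 119 CPM and CCND2, at least 20% lower, at 183 against 285 CPM. MYC had 50.6 CPM in the class and 44.8 CPM in the other cells.

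Of 12 CDK inhibitors and p53 targets, 1 was at least 2-fold higher, where 4.53% of all genes were, and 5 at least 20% lower, where 12.1% were. The higher gene was CDKN2D, with 31.2 against 8.88 CPM, which passed the minimum only through the class. Against the other SOX2-high cells described below, 2 of the 12 were at least 20% lower. The share of all genes at least 20% lower was not computed against those cells. The list summed to 2174 CPM in the class, 2304 CPM in those cells and 4193 CPM in the other SOX2-low cells. CDKN1A, the gene of p21, had 455 CPM in the class and 414 CPM in the others, and differed more within the class, with 531 CPM in cluster 25 and 332 CPM in cluster 28. GADD45B had 137 against 219 CPM and BTG1 226 against 321 CPM.

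Of 12 chromatin and tubulin genes of cycling cells 10 were at least 2-fold higher, against 4.53% of all genes, with a median of 1.52. HMGB2, a chromatin protein, had 536 CPM against 61.3 CPM, and STMN1, which destabilizes microtubules, 178 against 26 CPM. The tubulins TUBB and TUBB4B had 749 against 209 CPM and 850.2 against 268 CPM. Several of these genes, like the histone genes below, have near-identical copies, among which the authors' counting may have split reads.

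**Figure D1:**
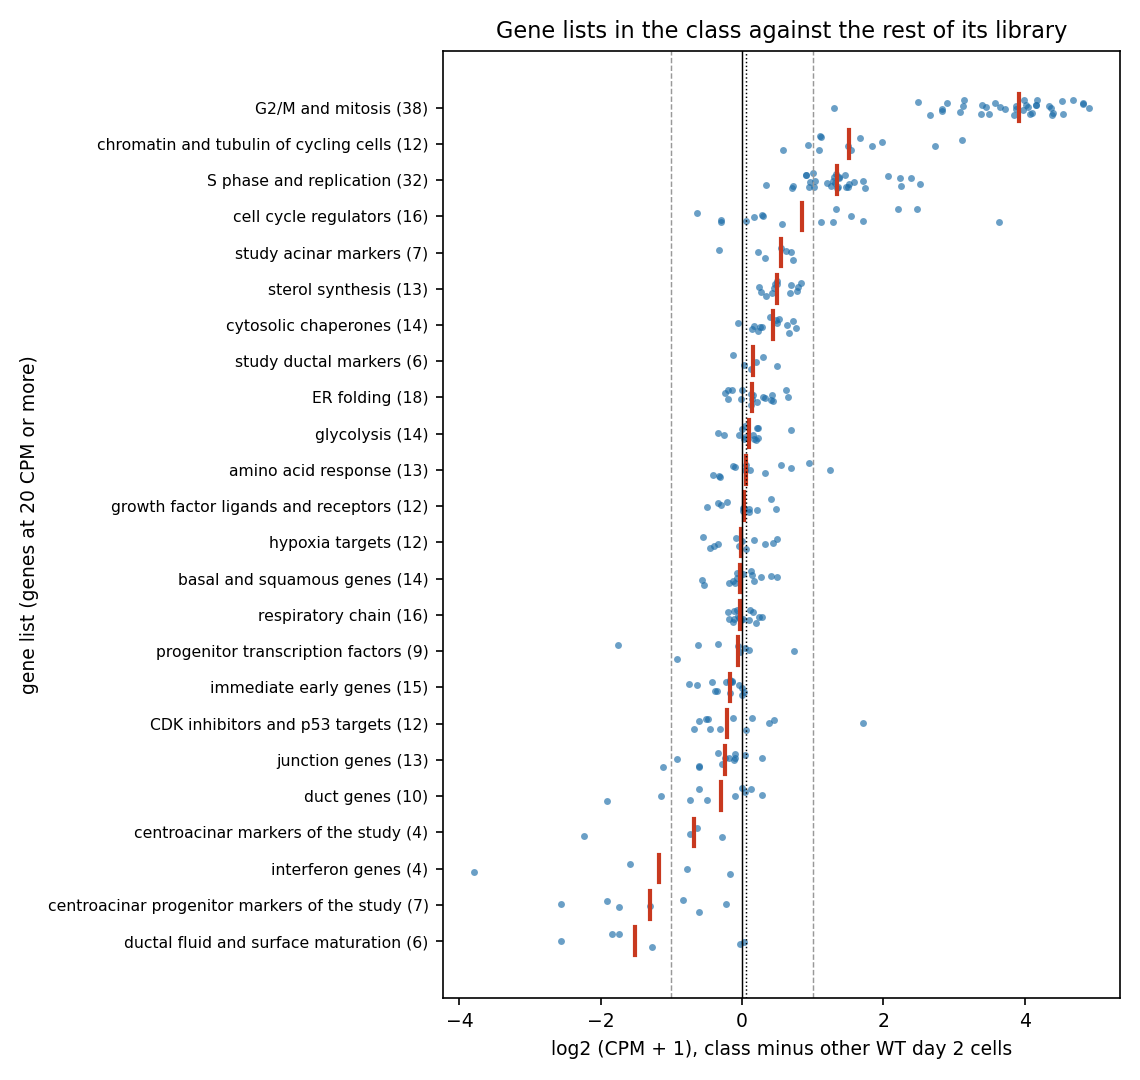
Each point is a gene and each red bar the median of its list, for lists with at least 4 genes of 20 CPM or more. The x axis is the log2 difference in CPM + 1 between the Prolif_acinar class and the other WT day 2 cells, the dashed lines mark 2-fold and the dotted line the median of all genes (0.05). The G2/M list lies apart, with all 38 genes beyond 2-fold and a median of 3.92.

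The acinar side of the name was checked next. The markers by which the study recognised acinar cells in these same libraries, and which are therefore no independent evidence, were the peroxiredoxins PRDX2 and PRDX4, the prolyl isomerases FKBP4 and FKBP11, asparagine synthetase (ASNS), NUPR1 and LDHA. None of the 7 was 2-fold apart. Of these, 5 were at least 25% higher in the class, against 19.2% of all genes, and 1, NUPR1, at least 20% lower, against 12.1%, with 99.1 against 124 CPM. PRDX2, a cytosolic peroxiredoxin, had 326 CPM in cluster 25 and 312 CPM in cluster 28, and 198 CPM in the other cells, a ratio of 1.62 (1.57 to 1.67). FKBP4, a chaperone partner of HSP90, had 117 against 70.5 CPM, PRDX4, a peroxiredoxin of the endoplasmic reticulum, 152 against 98.3 CPM, and FKBP11 141 against 113 CPM. Summed over the 7 genes the class had 1713 CPM, the other cells 1351 CPM and the progenitors 876 CPM. Cluster 26 and the ductal clusters 6 and 4 had 1813, 1735 and 1638 CPM, so the level was not particular to the class.

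Most of the acinar genes that could be matched were at or near 0, in the class as in the other cells. The list of acinar enzymes and regulators had 29 genes, of which 16 could be matched by symbol in the count matrix, and 11 of these had no UMI in the class, against 45.7% of all 27912 genes. The list summed to 22.3 CPM in the class and 32.2 CPM in the other cells. Among the 11 were CPB1, CEL, GP2 and SYCN, all of the secretory granule or its enzymes, and the acinar transcription factors PTF1A, RBPJL and BHLHA15. A count of 0 in the class allows up to 0.192 CPM. CLPS, colipase, was the 1 gene above 10 CPM, and it had 21.1 CPM in the class, 22.3 CPM in the other cells and 28.2 CPM in proliferating ductal cells. NR5A2, another acinar regulator, had 1 UMI in the class (0.0640 CPM) and 8.84 CPM in the other cells. CTRL, a chymotrypsin-like protease, had 14 UMIs (0.896 CPM) and CELA1, an elastase, 1 UMI. The other 13 genes of the list, chief digestive enzymes among them, were not matched and are not analysed here. The genes that led the class were those of the cell cycle, and most of the matched acinar genes were not detected at this depth, so the class is named below only as deposited.

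Duct keratins were expressed, though not all at the level of the other cells. KRT19 had 5505 CPM in the class and 5051 CPM in the other cells, and every cell of the class held a KRT19 UMI. KRT7 had 724 against 1211 CPM and KRT8 419 against 930.2 CPM. Of 10 duct genes none was at least 2-fold higher (4.53% of all genes were) and 2, KRT8 and MUC1, were 2-fold lower (1.6%), while 5 were at least 20% lower (12.1%). Against the other SOX2-high cells described below, 1 was 2-fold lower, MUC1 (1.33% of all genes were), and 4 were at least 20% lower. The share of all genes at least 20% lower was not computed against those cells. The 6 ductal markers of the study had a median difference of 0.16, with KRT5 at 1432 against 1021 CPM. PDX1, NKX6-1 and NEUROG3, transcription factors of the pancreatic progenitor and endocrine lineages, had no UMI in the class or in the other WT day 2 cells. They were the 3 genes without a UMI on a list of 18 progenitor transcription factors. Of that list 8 genes had at least 10 CPM in the class, among them HES1, with 935 against 956 CPM. Markers of other cell types were low, with sums of 12.5 CPM for 8 immune, 0.0640 CPM for 8 endothelial, 0.960 CPM for 9 fibroblast and 11.1 CPM for 10 endocrine genes. The endocrine sum was ISL1 alone. In the other day 2 cells the same sums were 23.6, 0.111, 2.52 and 13.4 CPM.

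Several mucin and luminal surface genes were lower in the class. Of 7 centroacinar progenitor markers 4 were at least 2-fold lower, against 1.6% of all genes, with a median of −1.30. MUC1, a membrane mucin, had 126 CPM in cluster 25 and 121 CPM in cluster 28, against 468 CPM in the other cells, a ratio of 0.265 (0.253 to 0.277). The mucins MUC16 and MUC4 had 26.3 against 90.6 CPM and 3.27 against 24.3 CPM. In the list of ductal fluid and surface genes, which shares MUC4 and MUC16 with the markers above, 4 of 6 were lower, among them WFDC2, a secreted protease inhibitor, with 39.0 against 142 CPM, and AGR2, which helps to fold mucins, with 18.4 against 46.2 CPM. The other 2 lay near equal, AQP3 with 371 against 377 CPM and DUOX1 with 66.1 against 64.8 CPM. MUC4 and AGR2 passed the minimum only through the other cells, so the counts of both lists follow in part from it. Progenitors weighed on some of these averages, since their cluster 13 had 1720 CPM of MUC1. In clusters 4, 6 and 26 MUC1 had 74.2, 101 and 132 CPM, near or below its level in the class. PROM1, ENPP3, CXCL17 and RAB11FIP1 were lower as well, with 13.8 against 69.0 CPM, 20.8 against 90.3 CPM, 21.1 against 118 CPM and 25.6 against 89.1 CPM. Cluster 26 lay near the class in these genes too, with 14.6, 18.2, 28.3 and 30.2 CPM. Of 13 junction genes 1 was at least 2-fold lower, TJP3, with 13.1 against 29.5 CPM, which also passed the minimum only through the other cells. CDH1, E-cadherin, had 166 against 256 CPM.

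Some of the lowest genes differed as much between groups of the other cells. The WT clusters fell into those with SOX2, a transcription factor of foregut and stem cells, and those nearly without it. The limit between them, 10 CPM over all days, was chosen once the values were known. The class lay on the SOX2 side, with 175 CPM (155 and 208 CPM in clusters 25 and 28), and so did 4682 of the other day 2 cells, with 123 CPM. The remaining 852 cells outside the proliferating ductal class had 3.24 CPM. DDX60, an antiviral helicase, had 3.27 CPM in the class and 71.8 CPM in the other cells, but 10.8 CPM in the SOX2-high and 431 CPM in the SOX2-low of these. HSPB1, a small heat shock protein, had 37.1 CPM in the class, 47.7 CPM in the other SOX2-high and 1655 CPM in the SOX2-low cells. UPK3BL2 followed the same pattern, with 35.3, 39.4 and 685 CPM. MUC1 did not, with 124, 486 and 368 CPM.

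Against the 4682 other SOX2-high cells alone, 251 of 5707 genes were at least 2-fold higher in the class (4.4%) and 76 lower (1.33%). In this comparison all 38 G2/M genes were at least 2-fold higher, with a median of 4.27, and 23 of 32 S phase genes were. Of the fluid and surface genes 4 of 6 were at least 2-fold lower, with a median of −1.53, and of the progenitor markers 6 of 8 were. Genes under 20 CPM in the class, such as MUC4 and AGR2, could pass the minimum only through the other SOX2-high cells. The SOX2-high cells include the progenitors, whose markers summed to 3012 CPM, and the same sum was 367 CPM in the class, 381 CPM in cluster 26 and 332 CPM in cluster 6. Of 4 interferon-stimulated genes 2 had been at least 2-fold lower against all other cells, where 1.6% of all genes were. These 2 passed the minimum only through the other cells. One of these, ISG15, had 8.64 CPM in the class and 27.9 CPM in all other cells, but 9.39 CPM in the other SOX2-high cells. The other, ISG20, had 1.09 CPM in the class, 28 CPM in all other cells and 7.70 CPM in the other SOX2-high cells.

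In the lists of metabolism and folding MTHFD2, described below, was the 1 gene at least 2-fold apart. In sterol synthesis 11 of 13 genes were at least 25% higher, against 19.2% of all genes, with a median of 0.49 and none beyond 2-fold. FDFT1, which commits the pathway to sterols, had 89.1 against 49.5 CPM, FDPS 289 against 168 CPM and MVD 51.3 against 29.6 CPM. Summed sterol genes had 1252 CPM in the class, 1139 CPM in the progenitors, 962 CPM in cluster 26 and 891 CPM in cluster 6. Of 14 cytosolic chaperones 8 were at least 25% higher, with HSP90AA1 at 1199 against 709 CPM. Summed chaperones had 6165 CPM in the class, 6009 CPM in cluster 26 and 5418 CPM in cluster 6. Of 18 folding genes of the endoplasmic reticulum 6 were, with CRELD2 at 101 against 63.9 CPM, and their sums were 3444, 3427 and 3399 CPM in the class and clusters 26 and 6. In the amino acid response list MTHFD2, of the mitochondrial folate pathway, was 2.52-fold higher (2.21 to 2.86), with 21.3 against 8.47 CPM, and PHGDH, which starts serine synthesis, had 86.1 against 44.4 CPM. The list as a whole had a median of 0.06.

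Glycolysis, to which LDHA belongs, had a median of 0.10, with 1 of 14 genes at least 25% higher (19.2% of all genes were), PGAM1, at a ratio of 1.62 (1.57 to 1.66), and 1 at least 20% lower, HK1, with 132 against 167 CPM. None of 16 respiratory chain genes was 25% higher or 20% lower (median −0.03). Of 15 immediate early genes, induced by stress and by dissociation of cells, none was 2-fold apart and 5 were at least 20% lower (12.1% of all genes were), with IER3 at 2812 against 3589.6 CPM. Against the other SOX2-high cells alone, 2 of 14 were at least 20% lower. The share of all genes at least 20% lower was not computed against those cells. The list summed to 7039 CPM in the class, 7883 CPM in those cells and 12374 CPM in the other SOX2-low cells.

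**Figure D2:**
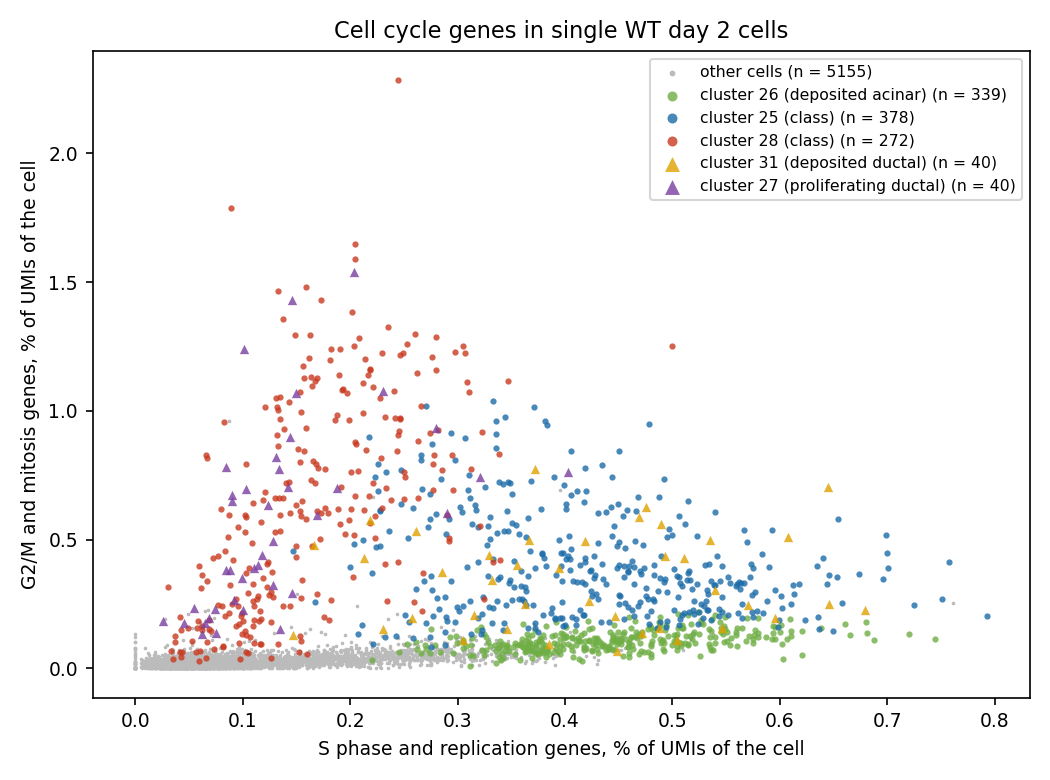
Each point is 1 WT day 2 cell, with the percent of its UMIs on S phase and replication genes on the x axis and on G2/M and mitosis genes on the y axis, coloured by cluster. Cells of clusters 26, 25 and 28 lie along an arc from high S phase (cluster 26, median 0.441% S phase and 0.103% G2/M) through both (cluster 25, 0.419% and 0.352%) to high G2/M (cluster 28, 0.155% and 0.607%).

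The class was mixed in its position in the cycle. By the deposited phase calls, which rest on genes of the same kind, cluster 25 had 168 cells in S and 210 in G2/M phase, and cluster 28 had 253 in G2/M, 6 in S and 13 in G1. Single cells of the class had a median of 0.398% of their UMIs on the G2/M list, with 5% of cells below 0.122% and 5% above 1.16%. The median was 0.0233% in the other day 2 cells. The 650 cells held 65.4% of all G2/M list UMIs of the library while they made up 10.4% of its cells and 13.6% of its UMIs, and 28.8% of its S phase list UMIs.

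Clusters 25 and 28 differed in genes of the cycle, among others. Of 5710 genes 36 were at least 2-fold higher in cluster 28 (0.63%), 12 of them on the cell cycle lists, and 100 lower (1.75%), 31 of them on those lists. Of 39 G2/M genes 12 were higher in cluster 28 and none lower. Besides CCNB1 and CDC20, they included PTTG1, securin, with 214 against 54.9 CPM. Outside that list CDKN3, a phosphatase of CDKs, had 28 against 2.38 CPM, ASPM 361 against 80.7 CPM and ARL6IP1, a membrane-shaping protein of the endoplasmic reticulum, 975 against 339 CPM. TOP2A, MKI67 and AURKB differed little, with 298 against 274, 189 against 168 and 123 against 146 CPM.

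S phase genes were the other way round, with 26 of 33 at least 2-fold lower in cluster 28 and none higher. MCM5 had 16.4 CPM in cluster 28 against 80.4 CPM in cluster 25, TK1 30.7 against 136 CPM and PCNA 113 against 448 CPM. The linker histone genes H1-5, H1-2 and H1-4 were lower as well, with 17.3 against 259.7, 43.4 against 209 and 38.4 against 168 CPM. They are named because they lay among the largest differences, and linker histone genes were not counted as a list. Of the unnamed loci LOC123392643 had 61.0 against 612 CPM and LOC106004560 5.03 against 117 CPM. These loci could not be assigned a function from the annotation used here. The median difference was −0.06 over the acinar markers of the study, 0.09 over sterol genes, 0.00 over chaperones and −0.40 over immediate early genes. In the amino acid response list 1 of 14 genes was at least 2-fold lower in cluster 28, MTHFD2, with 11.9 against 27.1 CPM.

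Cluster 28 was itself uneven. TOP2A had quartiles of 0, 1 and 13 UMIs per cell there, against 3, 6 and 9 in cluster 25, and 51.5% of its cells held a TOP2A UMI without thinning, against 97.4%. The 140 cells with one held a median of 24921.5 UMIs and 0.915% G2/M UMIs, and the 132 without held 15869 UMIs and 0.294%. As TOP2A itself formed these groups, the values that follow are a description. In cells with and without it, UBE2C had 847 and 101 CPM and PLK1 153 and 35.3 CPM. Other genes differed less between them, among them CDC20, with 182 and 126 CPM, CCNB1, with 330.3 and 173 CPM, PTTG1, with 219.5 and 205 CPM, and CDKN3, with 27.5 and 28.8 CPM. The 13 cells in G1 phase by the deposited call had a median of 0.0581% G2/M UMIs, and 252 CPM of CCND1 against 87.4 CPM in the G2/M phase cells.

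**Figure D3:**
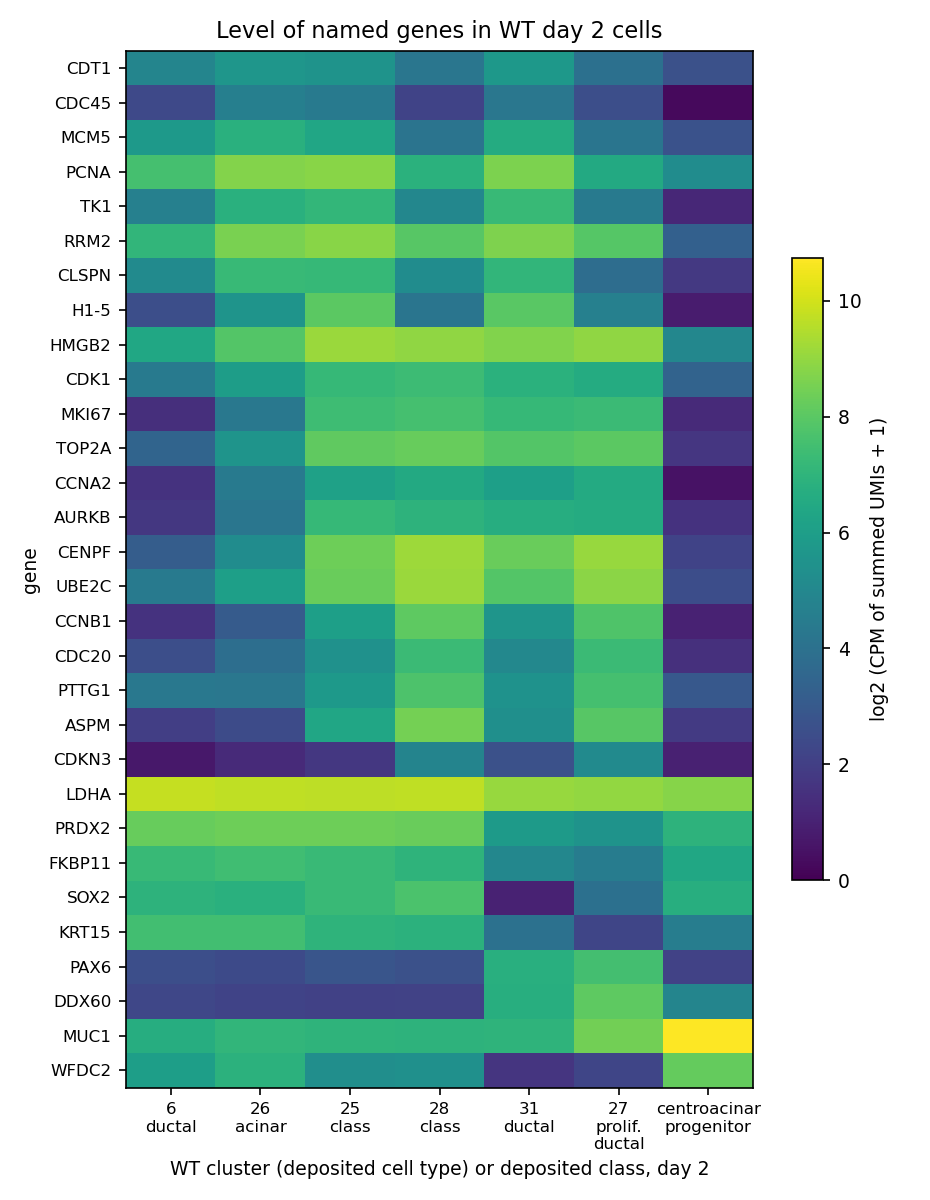
Colour gives the log2 of CPM + 1 of each named gene (rows) in WT day 2 clusters 6, 26, 25, 28, 31 and 27 and in the centroacinar progenitor class (columns). Replication genes are high in clusters 26, 25 and 31, H1-5 in clusters 25 and 31 (259.7 and 253 CPM), and CCNB1 and CDC20 in clusters 28 and 27 (269 and 217 CPM of CCNB1), while SOX2 is low in clusters 31 and 27.

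Outside the class, cluster 26 was the nearest. It held 339 cells, all called S phase, and is deposited as acinar. Over 5635 genes that are on none of the cell cycle lists, the Pearson correlation of its log2 levels with those of the class was 0.981. That of cluster 6 (ductal) was 0.963, of cluster 9 0.922, of cluster 27 (proliferating ductal) 0.877 and of progenitor cluster 13 0.820, while clusters 25 and 28 had 0.978 with each other. In cluster 6, 733 of 908 cells were called S phase. Genes of the cycle that are on none of the lists, such as ASPM, stayed among the 5635, so phase was not fully removed. These correlations are across genes, which are no replicates, and all clusters share 1 library. Of 5642 genes 108 were at least 2-fold higher in cluster 25 than in cluster 26 (1.91%) and 7 lower (0.124%). ASPM had 80.7 against 4.49 CPM and MKI67 168 against 18.7 CPM. Lower in cluster 25 were E2F1, a transcription factor that opens S phase, with 22.4 against 56.7 CPM, and WFDC2, with 38 against 118 CPM. Summed S phase genes were alike, with 4107 and 4345 CPM. PRDX2 had 326 and 329 CPM, FKBP11 152 and 173 CPM.

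Cells with as many G2/M UMIs were rare outside the class. At or above its lower quartile of 0.245% lay 487 cells of the class and 60 others. Of the 60, 30 were among the 40 cells of cluster 27 and 25 among the 40 cells of cluster 31, with 4 in cluster 35 and 1 in progenitor cluster 13. The cells of cluster 35 were shallow, with a median of 1469.5 UMIs, and held no UMI of MKI67 or CCNA2, so their shares rest on few UMIs. Cluster 31 is deposited as ductal, but it had 144 CPM of MKI67 and 235 CPM of TOP2A and summed to 3310.5 CPM of G2/M genes. It had 1.07 CPM of SOX2 and 108 CPM of PAX6, against 5.83 CPM of PAX6 in the class.

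The proliferating ductal class (Prolif_ductal, cluster 27) gives a comparison between cycling cells. It had 40 cells at day 2, with 815672 UMIs, so its low counts are uncertain. None of 39 G2/M genes was 2-fold apart between the classes, where 5.78% of all 6057 genes were higher in the Prolif_acinar class (350 genes) and 6.5% lower (394 genes). The median of the list was −0.22, with 16 genes at least 20% lower in the Prolif_acinar class (28.2% of all genes were) and 3 at least 25% higher (23.4%), and the sums were 4874 and 5827 CPM. MKI67 had 176 CPM in Prolif_acinar and 157 CPM in Prolif_ductal cells, TOP2A 283 and 264 CPM, and CKS2, the lowest, 167 and 322 CPM. S phase genes were higher in the Prolif_acinar class, 21 of 32 by at least 2-fold and none lower, with PCNA at 320.4 against 91.9 CPM and TK1 at 95.7 against 19.6 CPM. All 40 Prolif_ductal cells were called G2/M phase. Their S phase sum of 1410 CPM lay nearer that of cluster 28, 1732 CPM.

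The genes that set the classes apart most were not of the cycle. RAB34, a small GTPase needed to form cilia, had 1649 UMIs (106 CPM) in the Prolif_acinar class and none in the Prolif_ductal class. The ratio was at least 23.3 by the lower end of its exact interval, the kind given for the genes that follow, and 28.7 with 3 counts set in place of 0. IGFBP3, which binds insulin-like growth factors, had 2043 against 88.3 CPM, a ratio of 23.2 (18.4 to 29.6). TGFBI, a matrix protein, had 171 against 8.58 CPM, a ratio of 19.9 (9.65 to 49.6). KRT15, a keratin of basal cells, had 122 CPM in the class and 3 UMIs in the other, a ratio of 33.0 (11.3 to 160.3). S100A9, a calcium-binding protein, had 478 against 35.6 CPM, and SOX2 175 against 14.7 CPM, a ratio of 11.9 (6.80 to 23.1). After thinning, 36.6% of Prolif_acinar cells and 0 of 40 Prolif_ductal cells held a SOX2 UMI, which by the limit of 3 counts allows up to 7.5% of the latter with a UMI at that depth. Without thinning the shares were 92.5% and 7.5% (1.57 to 20.4%), against 3.52% (2.39 to 4.99%) of the other SOX2-low cells described above, at a median of 13297 UMIs. The 12 SOX2 UMIs of the Prolif_ductal class lay in 3 cells, 10 of them in 1 cell, so its level and the ratio rest on that cell.

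Lower in the Prolif_acinar class was ECRG4, which encodes a secreted peptide, with 0.832 against 294 CPM. NRN1, neuritin, had 1.34 against 211 CPM, and the transcription factors MEIS2 and PAX6 had 0.960 against 93.2 CPM and 5.83 against 183 CPM. NR5A2 had 1 UMI in the class and 54 UMIs (66.2 CPM) in the Prolif_ductal class. HSPB1 had 37.1 against 1086 CPM and DDX60 3.27 against 271 CPM. Of the 7 acinar markers of the study 4 were at least 2-fold higher in the Prolif_acinar class, against 5.78% of all genes, with PRDX2 at 320.4 against 44.1 CPM and FKBP11 at 141 against 22.1 CPM. Their sum of 832 CPM in the Prolif_ductal class lay near that of the other SOX2-low cells, 799 CPM, and the other SOX2-high cells had 1447 CPM.

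Many of these genes differed in the same direction between SOX2-high and SOX2-low cells outside both classes. Of the 350 higher genes 266 reached 20 CPM in that comparison, which has no cell in common with the former, and 144 of these (54.1%) were at least 2-fold higher in the SOX2-high cells too. Over all 5707 genes 220 were (3.85%). Of the 394 lower genes 341 could be compared and 199 (58.4%) were lower in the SOX2-high cells, against 265 of all genes (4.64%). None of either set was 2-fold apart in the opposite direction. IGFBP3 had 2220 CPM in other SOX2-high and 125 CPM in other SOX2-low cells, RAB34 87.3 and 1.80 CPM, and ECRG4 0.842 and 99.4 CPM.

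**Figure D4:**
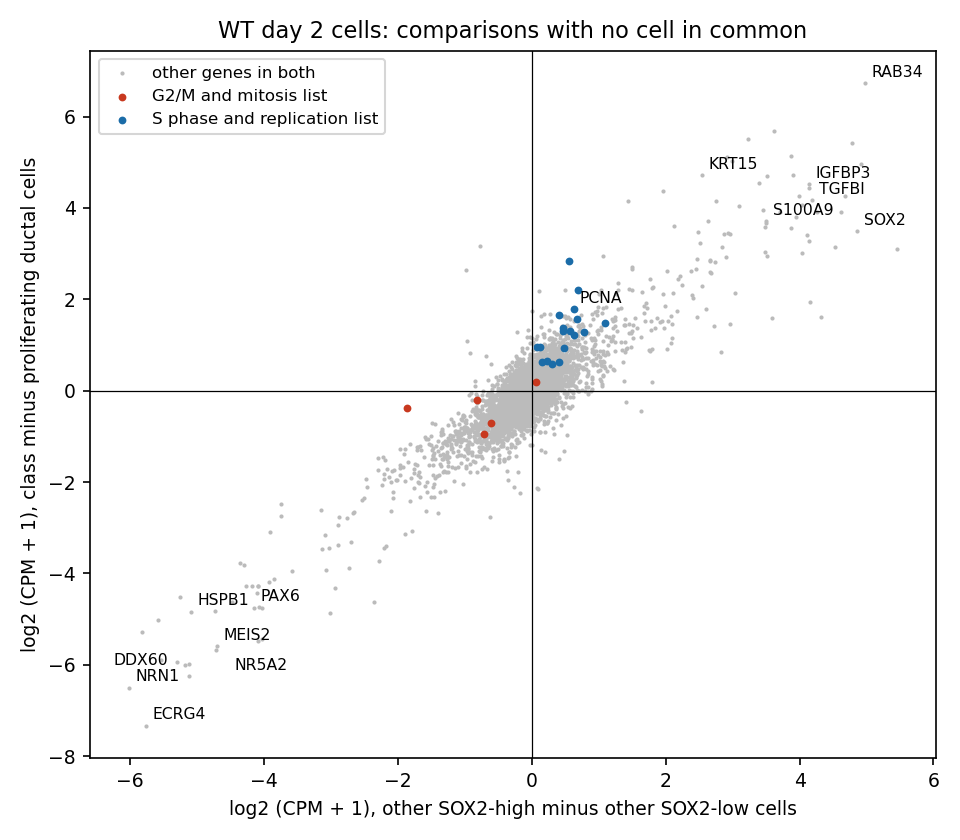
Each point is 1 of 5456 genes measured in both comparisons. The x axis is the log2 difference between other SOX2-high and other SOX2-low WT day 2 cells and the y axis that between the Prolif_acinar and Prolif_ductal classes, which share no cell. Genes such as RAB34 and IGFBP3 lie at the upper right, where SOX2 lies by construction since it formed the groups of the x axis, ECRG4 and NRN1 at the lower left, and S phase genes (blue) above 0 on the y axis.

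Over time the class all but vanished. It had 650 cells at day 2, 0 of 5326 cells at day 5, which allows a share of up to 0.0563% by the limit of 3 counts and 0.0692% by the exact interval, 12 of 4634 at day 7 (0.259%, 0.134 to 0.452%) and 1 of 5416 at day 9. The Prolif_ductal class had 40 cells at day 2 (0.643%), 199 at day 5 (3.74%), 58 at day 7 and 1 at day 9. Libraries of different days were merged without batch correction and there was 1 of each, so day and library cannot be told apart. The 12 cells of day 7 were 10 of cluster 28 and 2 of cluster 25. They had 3648 CPM of G2/M genes, 159 CPM of MKI67 (121 to 205), 114 CPM of SOX2 (82.4 to 153) and 23.8 CPM of PAX6 (10.9 to 45.3, from 9 UMIs), above the 5.83 CPM of PAX6 in the class at day 2. The Prolif_ductal cells had 14.7, 1.30 and 8.25 CPM of SOX2 at day 2, 5 and 7, and 183, 226 and 192 CPM of PAX6.

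Whole WT libraries had 1017, 865 and 423 CPM of G2/M genes at day 2, 5 and 7 and 166 CPM at day 9. Without both proliferating classes they had 363, 389.5, 250.3 and 163 CPM. The CF libraries, with Prolif_acinar cells at 3.42, 1.45, 0.249 and 0.0804% of their cells and none of the Prolif_ductal class, had 567, 379, 257 and 216 CPM. The authors named WT and CF clusters separately, so shares of a named class are not directly comparable between the genotypes.

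**Figure D5:**
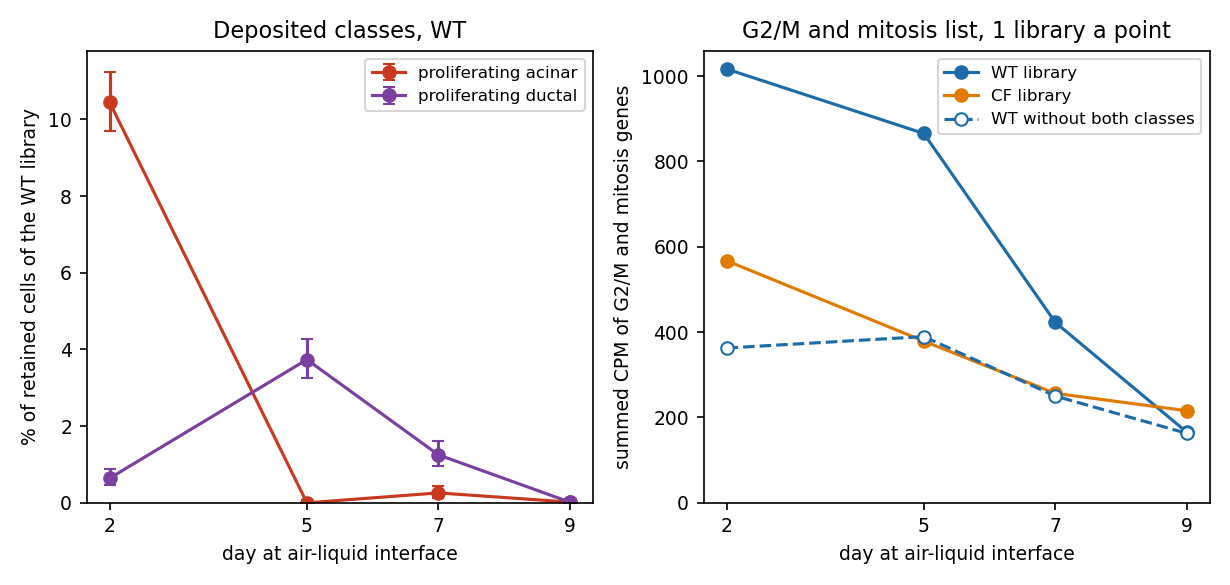
Left, the percent of retained WT cells in each deposited proliferating class by day, with 95% Clopper-Pearson bars; the Prolif_acinar class falls from 10.4% at day 2 to 0 at day 5 while the Prolif_ductal class is largest at day 5 (3.74%). Right, the summed CPM of G2/M and mitosis genes in each library by day, 1 library a point, where the dashed line leaves out both classes and stays between 163 and 389.5 CPM.

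The class of the same name in the CF day 2 library, which held 154 cells, all in CF cluster 24, also led with cell cycle genes. All 38 G2/M genes were at least 2-fold higher there than in the other CF cells, against 4.66% of 5814 genes, with a median of 4.55, and 30 of 31 S phase genes. MKI67 had 188 CPM in the CF class and 176 CPM in the WT class, and LDHA 762 and 820.2 CPM. Sterol genes were at least 25% higher in 12 of 13, against 22.3% of all genes, and fluid and surface genes at least 2-fold lower in 4 of 7, against 1.43%. In CF these 4 were MUC4, MUC16, MUC5AC and DUOX2, of which MUC4 and MUC16 were also among the WT genes called. MUC4, MUC5AC and DUOX2 passed the minimum only through the other CF cells. AGR2 had 62.3 against 87.7 CPM in CF, and WFDC2 0.458 against 0.470 CPM. SOX2 had no UMI in the CF class and 175 CPM in the WT class, while PAX6 had 106 and 5.83 CPM. The other CF day 2 cells had 0.0102 CPM of SOX2 and 83.0 CPM of PAX6, against 105 and 22 CPM in the other WT day 2 cells. Those WT averages pool SOX2-high and SOX2-low cells. The 852 SOX2-low WT cells had 3.24 CPM of SOX2 and 113 CPM of PAX6, and the WT Prolif_ductal class 14.7 and 183 CPM. In both genes these WT cells lay nearer the CF cells than the WT Prolif_acinar class did. The libraries differ in donors as well as in genotype, which cannot be told apart.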

How the data were processed

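The authors counted reads against the ASM1176430v1.1 build with Cell Ranger 5.0.1 and worked in Seurat under R 4.1.2. They dropped cells under 200 genes or above 20% mitochondrial reads, removed doublets with DoubletFinder and merged the 8 libraries. Clusters were named with clustifyr, for WT and CF cells separately. The matrices the authors deposited hold raw UMI counts per gene and cell, and their deposited cell table gives the cluster, cell type, phase and percent of mitochondrial reads. Deposited normalized values and lineage scores were not used. The cell type and cluster columns gave the members. Members and gene lists were chosen with earlier results of these data known.

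Here raw counts were summed per group of cells and scaled to CPM (Python 3.11.15, numpy 2.4.6, scipy 1.17.1, pandas 2.3.3; figures with matplotlib 3.10.9), with a pseudocount of 1 CPM and a minimum of 20 CPM in either group. Cells are not replicates, so no test was run. Intervals are 95%: exact Poisson for CPM, exact conditional binomial for ratios and Clopper-Pearson for shares, and cover counting error only. A count of 0 was given the limit of 3 counts. Named genes were the 20 highest and 15 lowest differences of at least 50 CPM and members of 31 lists (532 genes, 477 matched by symbol). Alternatives used TMM (edgeR 4.0.16) and DESeq2 1.42.0 factors in R 4.3.3, other minimums and pseudocounts, thinning to 3000 UMIs, and other sets of cells. The fold computation was tested on simulated data. No doublet caller was run again.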

Additional observations from a re-analysis of the deposited data

Results flagged for a closer look

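PAX6 and HBEGF differed between the class and the other day 2 cells in opposite directions in the WT and CF libraries. For PAX6 the log2 difference was −1.75 in WT (5.83 against 22 CPM) and 0.35 in CF (106 against 83.0 CPM). For HBEGF, a ligand of the EGF receptor, it was −0.50 in WT (37.4 against 53.3 CPM) and 0.48 in CF (120.0 against 85.5 CPM). With 1 library of each genotype the difference was not tested. Of 310 list genes compared, 33 had opposite signs, these 2 by at least 25% upwards and 20% downwards and 0 by 2-fold or more. In WT the PAX6 level of the other cells was 5.46 CPM in SOX2-high and 113 CPM in SOX2-low cells.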

How the results depend on the processing

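Counts of genes 2-fold higher than in other day 2 cells ranged from 209 to 380 over all alternatives (260 as reported), and TMM and DESeq2 factors gave 245 and 247 higher and 105 and 103 lower genes. Without the 5% of cells with the most UMIs the counts were 281 and 102. With a minimum of 5 CPM the lower genes numbered 206 (92 as reported). With cluster 28 alone, chosen after seeing the data, 4 S phase genes were 2-fold higher (25 as reported), and MCM5, HELLS and CHAF1A turned to −0.71, −0.12 and −0.073. Against Prolif_ductal cells, 811 genes were higher and 738 lower at 5 CPM, and 874 and 855 after thinning to 3000 UMIs (350 and 394 as reported). TMM factors gave 408 higher and 337 lower genes there and DESeq2 factors 382 and 356, so which side held more genes depended on the scaling. All of these rest on 40 cells. The class was 3.07% of WT cells over all days. Without thinning, 72.3%, 71.8%, 67.7%, 88.0%, 78.2% and 99.5% of the class held a UMI of CCNA2, CCNB1, CDC20, MKI67, TOP2A and LDHA. Of 2188 alternative values for 221 single gene differences called 2-fold, 81 were under 2-fold, and 3 changed direction, those of MCM5, HELLS and CHAF1A above. A gene called both against the other cells and against Prolif_ductal cells counts for each. Of all 6583 single gene values 232 changed sign, 229 of them for differences not called, among them those of MCM4, MCM6 and CDKN1A with cluster 28 alone (−0.82, −0.82 and −0.32). No paired analysis was possible because each group has 1 library. Genes under 20 CPM in both groups were left out of the main counts of differences. Differences between donors, days or cultures cannot be judged with this design.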
